A study of Mus musculus with 4 samples.

Results

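The 10 genes described here build the domains that flank and fill the gaps between myelin segments on an axon. They were chosen by name, from their known place in these domains (Nfasc, Ank3, Scn8a and Scn2a1 for the node of Ranvier, Cntnap1 and Cntn1 for the paranode, and Kcna1, Kcna2, Cntnap2 and Cntn2 for the juxtaparanode). All 10 were found among the 22096 gene symbols of the deposited tables, and all 10 passed the filter on low values. The tissue was whole spinal cord of mice of mixed strain background at postnatal day 8. The 2 control libraries came from Chd7f/+; Olig1-cre animals and the 2 conditional knockout (cKO) libraries from Chd7f/f; Olig1-cre animals, so Cre under Olig1 control, which acts in cells of the oligodendrocyte lineage and their precursors, was present in every animal and the controls carried 1 floxed Chd7 allele. Chd7 encodes a chromatin remodeler. The labels do not say whether the libraries of a group came from separate animals, so the spread between these libraries may be technical. The p-values rest on that spread pooled over genes more than on the spread of each single gene.

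A myelinated axon is divided into repeating domains. At the node, voltage-gated sodium channels are anchored by ankyrin G and spectrin and held by the neuronal form of neurofascin. At the paranode next to it, the axonal proteins Caspr and contactin 1 bind the glial form of neurofascin on the loops of the oligodendrocyte, and beyond it, under the compact myelin, Caspr2 and contactin 2 cluster potassium channels of the Kv1 family. Most of these proteins are made by neurons, while the glial form of neurofascin and part of contactin 2 are made by myelinating glia.

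Neurofascin is the member that both sides of this junction make, from 1 gene by alternative splicing. The tables hold 4 Nfasc transcripts on chromosome 1 (134461267 to 134638374 on mm9). GENCODE M21 pairs NM_182716 with a model that holds 3 coding exons absent from the models of the other 3 transcripts, and that lacks 2 coding exons those models share. NM_182716 and NM_001160317 have the same start and end in the tables, and their lengths differ by 198 bases, the same as the 198 bases by which the coding sequences of the paired models differ. The 5 exons are shown because they tell the neuronal-type from the glial-type transcripts. NM_001160316 and NM_001160317 are paired with the same model, Nfasc-203. For NM_001160316 and NM_001160318, which held 17.3% to 40.8% and 22.1% to 39.3% of the Nfasc gene sum, the exon content rests on the pairing alone. The exons are given 5′ to 3′ on the minus strand of GRCm38, with in-frame codons that begin with AC, which encode threonine, in capitals. The 2 exons of the glial-type transcripts lie at chr1:132600099-132600214 and chr1:132597765-132597969.
Nfasc glial-type exon 1: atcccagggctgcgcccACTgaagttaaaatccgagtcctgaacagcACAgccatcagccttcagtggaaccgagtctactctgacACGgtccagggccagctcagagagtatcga
Nfasc glial-type exon 2: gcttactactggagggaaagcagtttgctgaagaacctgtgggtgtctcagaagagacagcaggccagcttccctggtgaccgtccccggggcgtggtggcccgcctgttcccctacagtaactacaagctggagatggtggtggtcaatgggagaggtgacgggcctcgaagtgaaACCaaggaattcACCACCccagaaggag
The 3 exons of the neuronal-type transcript lie at chr1:132588074-132588310, chr1:132584364-132584480 and chr1:132582995-132583147.
Nfasc neuronal-type exon 1: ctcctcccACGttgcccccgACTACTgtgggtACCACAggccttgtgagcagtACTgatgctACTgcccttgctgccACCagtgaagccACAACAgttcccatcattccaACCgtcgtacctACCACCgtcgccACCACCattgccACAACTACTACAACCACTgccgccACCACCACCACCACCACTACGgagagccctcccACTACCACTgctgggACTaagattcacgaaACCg
Nfasc neuronal-type exon 2: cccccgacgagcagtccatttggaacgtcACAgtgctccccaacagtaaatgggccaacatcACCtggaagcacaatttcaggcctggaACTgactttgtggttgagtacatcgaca
Nfasc neuronal-type exon 3: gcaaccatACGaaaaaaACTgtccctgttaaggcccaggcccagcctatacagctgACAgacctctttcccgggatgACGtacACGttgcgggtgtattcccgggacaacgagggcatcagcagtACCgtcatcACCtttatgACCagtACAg

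Threonine codons made up 27.1% of the 166 whole codons of the neuronal-type exons, against 5.7% of the 106 whole codons of the glial-type exons. Over whole coding sequences they made up 8.8% in Nfasc-202, paired with NM_182716, and 5.9% in Nfasc-201, the model paired with NM_001160318. They were densest in the first neuronal-type exon, at 42.3% of its 78 whole codons, against 7.9% in the second and 18.0% in the third. Such a threonine-rich stretch is the known mark of the mucin-like part of the neuronal protein NF186, which the glial protein NF155 lacks. The names glial-type and neuronal-type are used below for this exon content alone, since whole cord does not show which cell made a transcript.

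**Figure D1:**
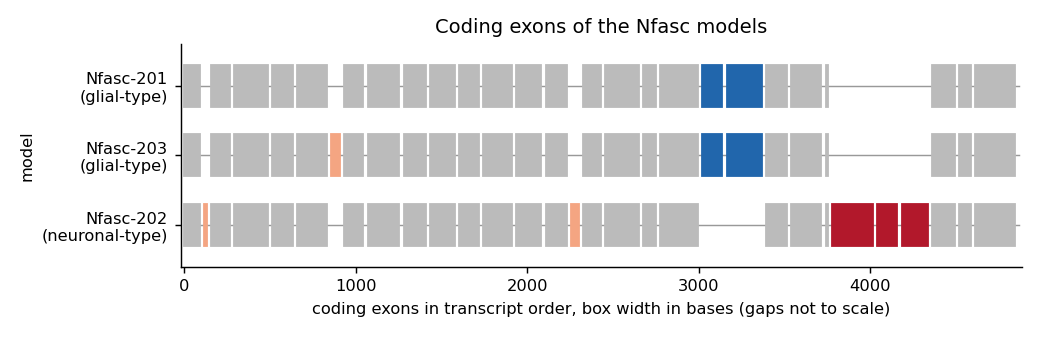
Coding exons of the 3 Nfasc models paired with the 4 transcripts, in transcript order from left to right with box width in bases. Grey boxes are shared by all models, blue boxes are the 2 glial-type exons (116 and 205 bases), red boxes the 3 neuronal-type exons (237, 117 and 153 bases), and orange boxes are shorter exons that differ.

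Values are FPKM, fragments per kilobase of transcript scaled to library size, added up per gene symbol from rows 300 bases or longer (gene sums). FPKM is per length, so levels can be compared between genes. Differences are log2 fold changes on the log2(FPKM + 1) scale, cKO against control, tested with limma over all 12913 gene sums with a mean of at least 1 FPKM. Rose and fell are used where the Benjamini-Hochberg adjusted p was under 0.05. Relative depth was 2.07 and 1.0 in controls 1 and 2 and 2.22 and 3.19 in cKO 1 and 2, and mean coverage per base of the members ran from 3.81 (Kcna2, control 2) to 217 (Cntn1, cKO 2). Across gene sums the log2 values correlated at 0.986 between the controls and 0.990 between the cKO libraries. Chd7 was at 3.52 and 3.12 FPKM in control and at 2.53 and 3.38 in cKO (adjusted p = 0.657), which checks the labels little, since the floxed part is not given in the labels and the controls are heterozygous.

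Of the 10 members, Nfasc fell and none rose. Of all gene sums, 6.54% fell and 4.13% rose. Both cKO libraries lay below both controls for Nfasc, Ank3 and Kcna1 and above both for Cntnap1 and Cntnap2, against 29.3% and 24.3% of all gene sums, and the groups overlapped for the other 5. The median log2 fold change was 0.09 over the 10 members, 0.13 over the 9 without Nfasc and -0.00277 over all gene sums.

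Nfasc was the most abundant member in both controls. Control 1 had 133 FPKM, control 2 had 122, cKO 1 had 52.9 and cKO 2 had 87.6. Both cKO libraries were below both controls, and cKO 1 was the lower of the cKO pair. The control mean was 127 ± 7.51 FPKM and the cKO mean 70.3 ± 24.5 (SD, n = 2 each). Nfasc fell 1.86-fold, with a log2 value of -0.89 ± 0.20 (SE, limma adjusted p = 0.00210). Nfasc ranked 1 among the members in each control, 3 in cKO 1 and 2 in cKO 2, where Cntn1 was the highest. The call rests on cKO 1, since without it the log2 fold change was -0.53 (adjusted p = 0.260), and it was also lost with no filter on low values (adjusted p = 0.156) and with short transcripts added to the sums (adjusted p = 0.162).

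Within Nfasc, the values of the transcripts classed as glial-type were lower in cKO when summed, NM_001160316 included. The sum of these 3 was 119 and 106 FPKM in controls 1 and 2 and 36.3 and 71.6 FPKM in cKO 1 and 2. The cKO libraries again lay below both controls. The neuronal-type transcript had 13.9 FPKM in control 1, 16.5 in control 2, 16.6 in cKO 1 and 16.0 in cKO 2, with overlapping groups. Fitted as separate sums among all gene sums, a split made after the values were seen, the glial-type sum fell with a log2 fold change of -1.12 ± 0.21 (SE, limma adjusted p = 2.45e-04, 2.17-fold lower). The neuronal-type value was 0.10 ± 0.15 (adjusted p = 0.751), with a 95% interval from -0.21 to 0.41. Without cKO 1 the glial-type value was -0.64 (adjusted p = 0.108), and with no filter its adjusted p was 0.154.

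Glial-type transcripts made up 89.5% and 86.5% of the Nfasc gene sum in controls 1 and 2, 68.6% in cKO 1 and 81.7% in cKO 2. The ratio of glial-type to neuronal-type FPKM was 8.52 and 6.39 in control and 2.18 and 4.47 in cKO. Both cKO ratios lay below both control ratios, and the two-sided exact permutation test gave p = 0.3333, the smallest value that 2 against 2 libraries allow. In a limma fit of transcript shares over 7326 transcripts of genes with several, the share of NM_182716 against the other transcripts changed by 1.22 ± 0.44 on the log2 scale (SE, 95% interval 0.00235 to 2.43, adjusted p = 0.541). It did not pass, and 0% of all transcript shares passed in either direction. The difference between the forms is thus a description of these 4 libraries.

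The 3 glial-type transcripts differ in where they start. NM_001160318, whose start lies inside the gene, was at 52.1 and 33.8 FPKM in control and 11.7 and 26.4 FPKM in cKO. NM_001160317, which shares its start with NM_182716, was at 43.7 and 22.0 FPKM in control and 9.41 and 20.3 FPKM in cKO. For each of these, both cKO libraries lay below both controls. NM_001160316, with the start nearest to the 3′ end, was at 22.9 and 49.8 FPKM in control and 15.2 and 24.95 FPKM in cKO, with overlapping groups. The controls differed more in each single transcript than in their sum, and isoforms of a gene share reads, so the split between the 3 is an estimate. So is the split of glial-type from neuronal-type, whose marker exons span 321 and 507 bases in rows 9390 to 9779 bases long. None of the 4 passed among all 15236 transcripts tested (lowest limma adjusted p = 0.235, NM_001160318), of which 0.0853% fell and 0.0328% rose.

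**Figure D2:**
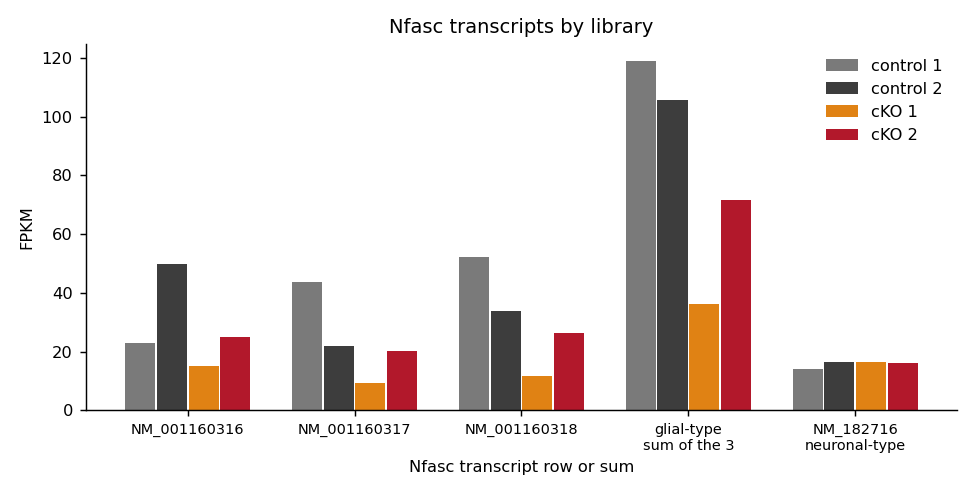
FPKM of the 3 glial-type Nfasc transcripts, their sum and the neuronal-type transcript in each library (bars are single libraries, with no error). The glial-type sum was 119 and 106 FPKM in control and 36.3 and 71.6 in cKO, while the neuronal-type transcript stayed between 13.9 and 16.6 FPKM in all 4 libraries.

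Oligodendrocyte genes moved in the same direction. Among 11 oligodendrocyte markers there were 10 lower calls and 0 higher ones (median -1.16). Mog, a myelin surface antigen, averaged 242 ± 9.70 FPKM in controls against 101.1 ± 22.4 in cKO libraries (SD, n = 2 each, limma adjusted p = 2.92e-05). The summed level of the 11 markers was 16470 and 18730 FPKM in control and 6698 and 10520 FPKM in cKO. Relative to the control mean, the median of the markers was -1.495 in cKO 1 and -0.90 in cKO 2, and the glial-type Nfasc sum was -1.60 in cKO 1 and -0.64 in cKO 2. In bulk tissue, fewer oligodendrocytes and less RNA per oligodendrocyte cannot be told apart. Schwann cells, the myelinating glia of the nerve roots, also make glial neurofascin. Of their 6 listed markers 5 were measured, of which Dhh was at 0 in control 2, and they summed to 8.62 FPKM in control 1, 3.02 in control 2, 0.915 in cKO 1 and 0.977 in cKO 2. Prx, a protein of Schwann cell myelin, was at 2.21 FPKM in control 1 and between 0.338 and 0.467 FPKM elsewhere. Cdh19, a cadherin of the Schwann cell lineage and the single listed Schwann marker past the filter on low values, fell, with 2.30 and 2.35 FPKM in the controls and 0.254 and 0.336 in the cKO libraries (-1.36 ± 0.16 SE, limma adjusted p = 9.56e-08). The Schwann marker sum was thus higher in both controls than in either cKO library, but in control 2 Cdh19 made up most of it. In control 2, Egr2 (0.0994 FPKM) and Dhh were below both cKO libraries, while Prx, Pmp2 (0.106 FPKM) and Cdh19 were above both. The part of Schwann cells in the Nfasc values was not tested. Other cell types also moved, with 6 of 7 meningeal markers fallen (median -0.996) and 3 of 6 microglial markers (median -0.35), and 0 risen in either list. Control 1 stood apart in the meningeal sum, at 259 FPKM against 55.6 in control 2 and 32.1 and 34.9 in cKO. Without control 1, the glial-type Nfasc sum was at -1.04, a value that leaves the higher Cdh19 and the higher meningeal sum of control 2 in place.

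**Figure D3:**
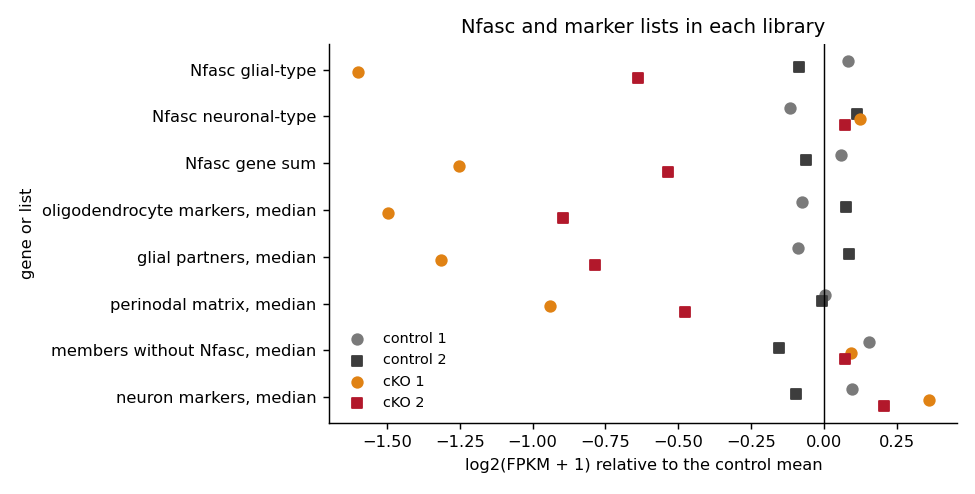
Nfasc and gene lists in each library, as log2(FPKM + 1) relative to the control mean, with each point 1 library (for lists, the median over genes). The glial-type Nfasc sum and the oligodendrocyte markers lie at -1.60 and -1.495 in cKO 1 and at -0.64 and -0.90 in cKO 2, while the median of the other members lies between -0.15 and 0.15 in all 4 libraries.

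Among the other node genes, Ank3, Scn8a and Scn2a1 did not pass. Ank3 (chromosome 10, 68996456 to 69490184 on mm9) encodes ankyrin G, the scaffold that ties sodium channels and neurofascin to the membrane skeleton. Its gene sum was 28.9 and 26.9 FPKM in control and 23.9 and 26.1 FPKM in cKO. Both cKO libraries lay below both controls by a small step, and the log2 fold change was -0.15 (95% interval -0.47 to 0.17, limma adjusted p = 0.606). Of its 9 transcripts, which were 6656 to 10025 bases long, 3 passed the filter on low values. Forms of ankyrin G outside these 9 were not measured on their own, so the gene sum does not show the level of the form at the node. NM_170730 was at 12.4, 14.9, 14.7 and 13.8 FPKM in control 1, control 2, cKO 1 and cKO 2, and NM_170728 at 11.2, 6.34, 7.34 and 9.88 FPKM in the same order, both with overlapping groups. NM_170689 was at 3.98 and 4.39 FPKM in control and 1.81 and 2.21 FPKM in cKO, and the groups did not overlap. It had a value of -0.79 ± 0.16 (SE), not past the threshold among all transcripts (limma adjusted p = 0.148). The other 6 were at most 0.774 FPKM.

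Scn8a and Scn2a1 encode the sodium channel alpha subunits Nav1.6 and Nav1.2, and at nodes of the developing nervous system Nav1.6 is known to take the place of Nav1.2 as myelin matures. Scn8a (chromosome 15, 100701114 to 100876360 on mm9) was at 17.4 and 15.5 FPKM in control and 17.2 and 16.8 FPKM in cKO. The cKO values lay inside the control range, and the 95% interval of the log2 fold change ran from -0.26 to 0.36. Of its transcripts, NM_011323 held 84.6% to 91.9% of the gene sum in the 4 libraries and NM_001077499 the rest, with overlapping groups for both. Scn2a1 (chromosome 2, 65508502 to 65605504 on mm9) was at 14.7 and 10.5 FPKM in control and 14.97 and 14.1 FPKM in cKO. Control 2 stood below the other 3 libraries, and the log2 fold change was 0.21 (95% interval -0.12 to 0.53, limma adjusted p = 0.460). The ratio of Scn8a to Scn2a1 was 1.18 and 1.47 in control and 1.15 and 1.19 in cKO. By gene sums Scn8a was the more abundant of the pair in each library, and the ratios overlapped between the groups (two-sided exact permutation p = 0.667). Taken from the longest transcript of each gene, which for Scn8a is the minor NM_001077499, the ratio was 0.0952 and 0.227 in control and 0.121 and 0.117 in cKO, so the order of the pair turned in each library while the groups still overlapped.

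The paranodal pair had no call. Cntnap1 (chromosome 11, 101037431 to 101052034 on mm9) encodes Caspr, the axonal protein of the septate-like junction, and was at 46.1 and 43.0 FPKM in control and 54.2 and 46.9 FPKM in cKO. Both cKO libraries lay above both controls, cKO 2 narrowly, and the log2 fold change was 0.18 ± 0.17 (SE, 95% interval -0.16 to 0.52, limma adjusted p = 0.570). Cntn1 (chromosome 15, 91881596 to 92172398 on mm9) encodes contactin 1, the lipid-anchored partner of Caspr. Its gene sum was 95.6 and 74.6 FPKM in control and 90.3 and 95.1 FPKM in cKO, with control 2 the low library. Of its 3 transcripts, NM_001159648 was at 69.2 and 59.99 FPKM in control and 70.97 and 70.3 FPKM in cKO, NM_001159647 at 26.1 and 13.3 against 19.3 and 24.8 FPKM, and NM_007727 at most 1.23 FPKM. The log2 fold change of the gene sum was 0.13 (95% interval -0.24 to 0.51, limma adjusted p = 0.719). The ratio of Cntnap1 to Cntn1 was 0.482 and 0.577 in control and 0.6004 and 0.494 in cKO, and these ranges overlapped. The intervals of Cntnap1 and Cntn1 lie above that of Nfasc, which ran from -1.30 to -0.49, and a difference between the genes was not tested.

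At the juxtaparanode none of the 4 genes passed. The channels had values below 0 and the adhesion proteins above 0, but the 95% intervals of all but Cntnap2 held 0. Without control 1, Kcna2 was at 0.12, so the values do not set the channels apart from the adhesion proteins. Kcna1 (chromosome 6, 126586481 to 126595819 on mm9), the Kv1.1 channel, was at 19.95 and 15.9 FPKM in control and 15.5 and 15.2 FPKM in cKO. Both cKO libraries lay below both controls, control 2 by little, and the log2 fold change was -0.20 (95% interval -0.52 to 0.11, limma adjusted p = 0.458). Kcna2 (chromosome 3, 106904485 to 106909797 on mm9), the Kv1.2 channel, was the lowest of the members in each library, at 8.14 and 5.32 FPKM in control and 5.51 and 6.26 FPKM in cKO, and its groups overlapped (log2 fold change -0.14, adjusted p = 0.641). The ratio of Kcna1 to Kcna2 lay between 2.43 and 2.995 in all 4 libraries.

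Cntnap2 (chromosome 6, 45010060 to 47251370 on mm9) encodes Caspr2, which holds the Kv1 channels in place. It was at 13.1 and 9.17 FPKM in control and 14.98 and 14.2 FPKM in cKO. Both cKO libraries lay above both controls, and control 2 was well below the other 3. Its value of 0.38 ± 0.16 (SE) missed the threshold over all genes (limma adjusted p = 0.121). It passed without control 1, at 0.62 (adjusted p = 0.0145), where the shallow control 2 stands alone. Both of its transcripts had values above 0, 0.44 for the longer NM_001004357 and 0.27 for the shorter NM_025771. Cntn2, known as TAG-1, the contactin of both axon and glia, was at 8.76 and 7.49 FPKM in control and 10.2 and 8.57 FPKM in cKO, with overlapping groups (log2 fold change 0.19, adjusted p = 0.489). Cntn2 (chromosome 1, 134406002 to 134439517 on mm9) is 21.7 kilobases from Nfasc on the same chromosome.

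The levels kept nearly the same order in all libraries. In control the order of means was Nfasc, Cntn1, Cntnap1, Ank3, Kcna1, Scn8a, Scn2a1, Cntnap2, Cntn2 and Kcna2, from 127 to 6.73 FPKM, and it was the same in each of the controls. Kcna1 and Scn8a overlapped in their control values, as did Scn2a1 and Cntnap2, and Cntn2 and Kcna2. Control 2, the shallowest library, held the lowest value of 7 of the 10 members, and cKO 1 that of 2. The part of control 2 in values above 0 was not tested apart from leaving it out, after which Scn8a, Scn2a1 and Cntn1 lay just below 0 (-0.03, -0.02 and -0.05).

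**Figure D4:**
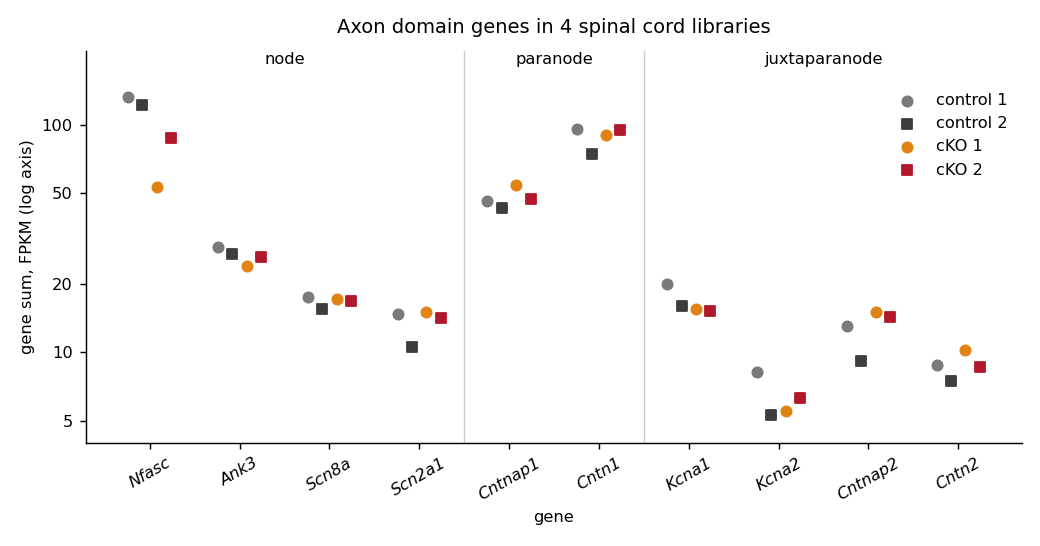
Gene sums in FPKM on a log axis for the 10 members in each library, grouped by axon domain, with each point 1 library. Nfasc lies at 133 and 122 FPKM in control and 52.9 and 87.6 in cKO, and the other 9 members show no call, from Cntn1 at 74.6 to 95.6 FPKM down to Kcna2 at 5.32 to 8.14.

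Other genes of these domains were taken from lists by role, 40 genes in all, of which 37 were tested. Gldn, a Schwann cell protein of peripheral nodes, was under the filter at 0.307 to 0.707 FPKM, and Sptan1 and Cadm2 were not analysed here. Of the 37, 2 rose and 9 fell, with a median of 0.00782, against 4.13% and 6.54% of all gene sums.

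The axonal genes and the glial genes of these lists had different counts. The 25 other axonal domain genes were listed by domain, and whole cord does not show which cells made their RNA. Of these 25, 2 rose and 1 fell, with 19 of 25 above 0. Their median was 0.11, against -0.00277 over all gene sums. Scn3b, a sodium channel beta subunit, rose by 0.49 ± 0.16 (SE, limma adjusted p = 0.0412), with controls at 18.2 and 15.6 FPKM and cKO libraries at 26.5 and 21.7. Kcnk4, the TRAAK leak potassium channel known at nodes, rose by 0.48 ± 0.16 (limma adjusted p = 0.0435), with controls at 2.604 and 3.78 FPKM and cKO libraries at 5.28 and 4.36. Neither rise held under median-of-ratios, TPM or quantile scaling, without the mean-variance trend, with no filter or without cKO 1, and Scn3b also lost its call without control 2 and Kcnk4 without control 1. Dlg1, a scaffold of the membrane-associated guanylate kinase family, fell, with controls at 19.7 and 19.1 FPKM and cKO libraries at 11.98 and 14.9 (-0.51 ± 0.16, limma adjusted p = 0.0285). That call was lost under each of these scalings, with no filter and without control 1, control 2 or cKO 1. The 3 tested paranode genes, Ank2, Epb4.1l3 and Spnb2, which form the skeleton under the axonal paranode, had log2 fold changes of 0.11, 0.11 and 0.04.

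Genes of the perinodal matrix and of the glial side held 8 of the 9 lower calls. Of 5 matrix genes, 3 fell (Vcan, Hapln2 and Tnr) and 0 rose, and their median was -0.57. Vcan, the versican core protein, went from 15.6 ± 0.0831 to 8.58 ± 3.13 FPKM (SD, n = 2 each; limma adjusted p = 7.29e-04), and Tnr, the tenascin of the perinodal space, from 13.3 ± 2.78 to 7.29 ± 2.56 FPKM (adjusted p = 0.00127). Hapln2, also known as Bral1, the link protein of nodal hyaluronan, went from 19.97 ± 1.86 to 13.6 ± 5.26 FPKM (adjusted p = 0.0303). Bcan, at 208 ± 37.5 and 198 ± 5.82 FPKM, and Omg, at 51.9 ± 5.98 and 36.7 ± 0.315 FPKM, did not pass. The oligodendrocyte, meningeal and microglial markers given above moved in the same direction, and the part of these cell types in the matrix values was not tested. Without cKO 1 none of the matrix calls held, Hapln2 was also lost without control 2 and under each scaling, and Tnr under TPM and quantile scaling.

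Of 7 genes that glia need to form or hold the paranode and internode, 5 fell and 0 rose, and their median was -1.03. Ugt8a, which makes the galactolipids that paranodal loops require, went from 283 ± 21.9 to 107 ± 53.9 FPKM (SD, n = 2 each; limma adjusted p = 2.29e-05). Cldn11, Mal, Cnp and Mag also fell, with log2 fold changes of -1.26, -1.24, -1.03 and -1.02. Of the 5 that fell, all but Mal are also among the oligodendrocyte markers counted above, so these counts share genes. The calls of Ugt8a, Cldn11 and Mal held without any 1 library, while Cnp and Mag lost theirs without control 1 (adjusted p = 0.154 and 0.0622), control 2 (0.261 and 0.146) and cKO 1 (0.0968 and 0.121). Cadm4, the glial partner of axonal Cadm3, was at 218 ± 10.7 and 207 ± 5.21 FPKM (log2 fold change -0.07, adjusted p = 0.877), and Gal3st1, which adds the sulfate to galactolipids, had a value of -0.50 (adjusted p = 0.0784). Over both glial lists and the 25 axonal genes, leaving out cKO 1 left 3 calls of lower genes instead of 9 and leaving out control 2 left 5. With no filter none of the 37 passed.

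**Figure D5:**
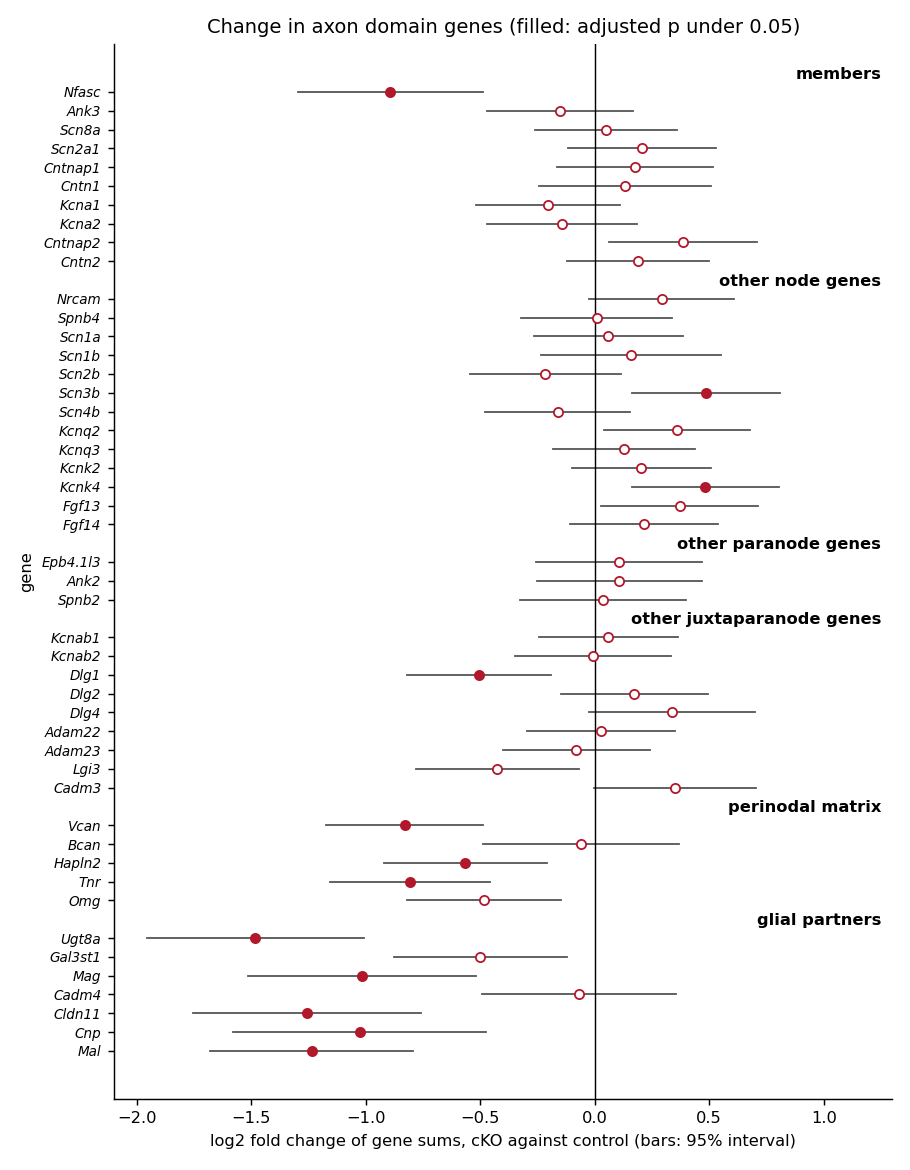
Log2 fold changes of gene sums (points) with 95% intervals (bars) for the 10 members and the 37 other tested genes of the axon domains, cKO against control, filled where the limma adjusted p was under 0.05. Nfasc is the filled point among the members at -0.89, 8 of the 12 matrix and glial genes are filled below 0, and most axonal genes are open points around 0.

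Close relatives of the members, from the same gene families, gave 1 call among 19 tested, of which Nrcam, Scn1a and Ank2 are also in the lists above. L1cam, an adhesion protein of the neurofascin family, rose by 0.56 ± 0.16 (SE, limma adjusted p = 0.0174), with controls at 24.5 and 22.2 FPKM and cKO libraries at 36.7 and 33.1, a call lost without control 2 or cKO 1 and with no filter. Nrcam and Chl1, of the same family, had values of 0.29 and 0.12 and did not pass. The contactins Cntn3 to Cntn6, the Caspr relatives Cntnap4, Cntnap5a and Cntnap5b, and the sodium channels Scn3a and Scn9a all had values above 0 with no call. Of the Kv1 relatives, Kcna3, Kcna5 and Kcna6 were above 0 (0.38, 0.135 and 0.26) and Kcna4 below 0 (-0.10), also with no call. Kcna4 was the 1 relative of the 19 below 0. The median over the 19 was 0.24. Neuron markers lay on the same side, with 13 of 13 above 0, a median of 0.29 and 1 call (Slc32a1, rose). Rbfox3, the neuronal nuclear protein NeuN, had 28.4 and 31.5 FPKM in the controls against 43.4 and 39.2 in the cKO libraries (limma adjusted p = 0.0690). The summed level of the neuron markers was 1701 and 1692 FPKM in control and 2484 and 2011 FPKM in cKO. Of 6 axon markers, Gap43 rose (adjusted p = 0.0253). The part of these shifts in the values of the members was not tested.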

How the data were processed

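RNA of whole spinal cord was sequenced as 4 libraries. Each deposited table gives an FPKM value and a coverage signal (depth per base) per RefSeq transcript, per the file headers. The submitters' processing notes name mm9 as the build and, without versions, CASAVA, TopHat, Cufflinks and Cuffdiff. The 4 tables were matched by transcript and position, and 315 of 28107 transcripts not marked OK in all of them were dropped. The tables hold no read totals, so relative depth came from the ratio of coverage to FPKM. Table starts were raised by 1 to count from 1.

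FPKM was summed per symbol over rows of at least 300 bases and tested as log2(FPKM + 1) with limma 3.58.1 in R 4.3.3 (empirical Bayes, mean-variance trend, Benjamini-Hochberg, threshold 0.05), for gene sums with a mean of at least 1 FPKM. The spread rests on 36.3 prior and 2 residual degrees of freedom, so it is mostly pooled over genes. Transcripts and transcript shares were fitted the same way. The code was tested on data simulated from limma's own fitted spread. An earlier simulation that drew part of the spread from each gene's own SD gave a larger share of false calls than the threshold allows and was replaced, so adjusted p-values with 2 libraries a group may be too small. Older symbols were matched for 4 list entries. Nfasc exons and sequences come from GENCODE M21 on GRCm38, whose coordinates were not mixed with mm9. Protein sequences were not used here.

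The members, the lists and the gene sums were chosen with earlier results of these data known. Genes named are the 10 members, their transcripts, Chd7 and, of the lists of other domain genes and relatives, those past the threshold and otherwise up to 2 per list by the smallest p. Cell type markers are given by counts, medians and a few defining genes, so most markers past the threshold are not named. Other names were chosen after their values were seen. Markers of astrocytes, microglia and sensory ganglia had summed levels of 1804 and 2011 FPKM in control against 1435 and 1853 in cKO for astrocytes, 59.9 and 64.4 against 49.5 and 46.9 for microglia, and 39.2 and 50.8 against 62.4 and 55.3 for sensory ganglia. Beside the listed Schwann cell markers, a further one is not reported here. Alternatives are given in the closing section.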

Additional observations from a re-analysis of the deposited data

How the results depend on the processing

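The single call among the members, Nfasc, fell in the fits with a pseudocount of 0.1, median-of-ratios, TPM and quantile scaling, no trend, robust moderation and a replicate block, and 0 members fell with no filter and with all rows summed. Leaving out 1 library at a time gave 0 to 1 members that fell and 0 to 1 that rose (Cntnap2). Over all genes, 22 rose and 33 fell with no filter, 23 and 30 with all rows summed, 204 and 460 under TPM scaling and 310 and 426 under quantile scaling, 351 rose with the replicate block and 832 at a threshold of 0.1, against 533 and 845. Without 1 library, 107 to 555 rose and 277 to 900 fell. Of the other domain genes, 0 rose with no filter, with all rows summed, under each scaling, with no trend and with the block, and 0 fell with no filter and with all rows summed; without 1 library 0 to 2 rose and 3 to 9 fell. With no filter 18398 gene sums entered the fit.

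Signs turned, with no call, when 1 library was left out: Kcna2 ranged from -0.41 to 0.12, Scn8a from -0.02875 to 0.13, Scn2a1 from -0.01646 to 0.43, Cntn1 from -0.04506 to 0.31, the neuronal-type NM_182716 from -0.01559 to 0.21, and the share changes of NM_001160316 and NM_001160317 from -0.75 to 0.93 and from -0.88 to 0.25. The share change of NM_182716 stayed between 0.71 and 1.73. The causes were not tested, and in these fits the lone library of a group is assumed to vary like the others.

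The replicate numbers are not said to pair the libraries. Deviations of same-numbered libraries correlated at -0.241, and with crossed numbers, chosen after seeing the data, the block gave 943 genes that rose and 1235 that fell. The block changed no call of a member but ended those of Scn3b, Kcnk4, Dlg1 and Cnp, with Nfasc at an adjusted p of 0.00276. The Scn8a to Scn2a1 ratio differed by -0.1565 between groups by gene sums and by -0.0421 by longest transcripts. Depth limits Kcna2 and Cntn2 most, at a coverage of 3.81 and 5.37 in control 2.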
